A study of Homo sapiens with 4 samples.

Results

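The HOX cluster genes are the 39 protein-coding genes named HOXA, HOXB, HOXC or HOXD plus a number. They were found by matching the RefSeq accession of each probe to a gene symbol, which gave 50 probes for all 39 genes, out of 16422 named genes and 41000 probes. Their RNA levels were taken from the parental cells of SkBr3 and BT474, HER2-positive breast cancer cell lines kept with vehicle, and from 1 lapatinib-resistant clone of each, selected and kept with up to 1 μM lapatinib, a drug that blocks the kinases EGFR and HER2. There was 1 Agilent 4 × 44 K array for each of these 4 groups, so no difference below has a check by replicates, and each resistant group is a single clone. The SkBr3 clone is called SkBr3/Lap#6 here and the BT474 clone BT474/Lap#3. In the sample labels these numbers are exchanged.

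HOX proteins are transcription factors that bind DNA through a homeodomain, often together with PBX and MEIS cofactors, and give cells their position along the body axis. The genes lie in 4 clusters, in which the order on the chromosome follows the order of expression from head to tail, so that low numbers are called anterior and high numbers posterior. Polycomb complexes keep HOX genes silent and Trithorax (MLL) complexes keep them active, and retinoic acid is a classical inducer of the anterior genes. In GRCh38.p14 the HOXB cluster spans chr17:48528526-48728750, HOXC chr12:53938831-54056030 and HOXD chr2:176087487-176190907.

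The signals are processed intensities on a linear scale. On the 4 arrays the 75th percentile over all probes lay between signals of 1115 and 2074, and differences below are log2 signals after subtracting it. A probe that the scanner software did not mark as well above background has no measured level. For such a probe the fold is a bound against the dimmest signal so marked on that array (13.3 to 16) or against the probe's own signal where that was higher, and it is given as "at least". No spot was saturated. A gene with several probes is represented by the one with the highest mean log2 signal, and a gene was counted when that probe reached a signal of 100 on at least 1 array. SkBr3/Lap#6 RNA was hybridized on another slide than the 3 remaining samples, so that for SkBr3/Lap#6 clone and slide cannot be told apart. Whether fewer cells carried a transcript or each cell carried less of it also cannot be told apart in RNA from whole cultures.

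The labels were checked against marker genes. The luminal keratin genes KRT8, KRT18 and KRT19 and ERBB2, the gene of HER2, were well above background on all 4 arrays, while CDH1, the gene of E-cadherin, was not so on either SkBr3 array. ERBB2 was 3.74-fold lower in SkBr3/Lap#6 than in SkBr3, at 118706 against 238524, and GRB7 was 2.29-fold lower. In BT474/Lap#3 their log2 differences were -0.65 and -0.19. ESR1 and PGR, the genes of the estrogen and progesterone receptors, had signals of 1067 and 5955 in BT474 against 11.1 and 4.15 in SkBr3, neither well above background there. All 4 basal or myoepithelial markers (KRT5, KRT14, TP63 and ACTA2) were at least 2-fold higher in SkBr3/Lap#6 than in SkBr3. Their summed signal, in units of the 75th percentile, was 0.392 in SkBr3 and 6.75 in SkBr3/Lap#6, against 1.07 in BT474 and 1.44 in BT474/Lap#3. Of the 6 measured fibroblast markers 1 was detected in SkBr3 and 3 in SkBr3/Lap#6, and the summed signal of the list, most of it from THY1, was 1.03 to 1.5. COL3A1 was at least 11.7-fold higher in SkBr3/Lap#6, at 347 against 4.10, and PDGFRB was detected there alone, at 64.8, while COL1A2, DCN and LUM were at background on all arrays. The 3 endothelial markers summed to 0.162 in SkBr3 and 0.673 in SkBr3/Lap#6, against 0.781 in BT474 and 0.391 in BT474/Lap#3. In BT474 only VWF was detected, at 892. In SkBr3/Lap#6 CDH5 was 8.43-fold higher than in SkBr3, at 915 against 58.4, PECAM1 at least 5.38-fold and VWF 1.44-fold. In BT474/Lap#3 PECAM1 was at least 2.38-fold higher than in BT474 and VWF 2.18-fold lower. The 5 leukocyte markers summed to 1.12 to 1.46, with PTPRC at background on all arrays. The part of these differences in the HOX values was not tested.

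HOX genes were detected far more widely in BT474 than in SkBr3 cells. By their representative probes, 10 of the 39 genes were well above background in SkBr3 and 11 in SkBr3/Lap#6, against 24 in BT474 and 27 in BT474/Lap#3. Over all named genes the shares were 74.7% in SkBr3 and 81.1% in its clone, and 76.6% in BT474 and 81.2% in its clone, compared with 25.6%, 28.2%, 61.5% and 69.2% for the HOX genes in the same order. The cell lines thus differed little in the share of all named genes detected and widely in the share of HOX genes detected. Counting a gene as detected by any of its probes gave 11, 13, 24 and 27 HOX genes in the same order. By any probe, HOXA7, HOXB2, HOXB5, HOXB6, HOXC5, HOXC12, HOXD1, HOXD3 and HOXD8 were detected on both BT474 arrays and on neither SkBr3 array. These 9 genes are 23.1% of the HOX genes, and the same pattern was found for 2.19% of all named genes. HOXB3 and HOXB13 had this pattern by their representative probes only. The reverse pattern, detection on both SkBr3 arrays alone, was found for no HOX gene and for 1.47% of all named genes.

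By their representative probes, 7 HOX genes were detected on all 4 arrays, namely HOXA3, HOXB4, HOXB7, HOXC9, HOXC10, HOXC13 and HOXD9. A further 12 genes were not detected on any array by any probe, with signals of 2.91 to 8.78 for the representative ones. Among them were HOXB1, HOXB8, HOXD4, HOXD10, HOXD11 and HOXD12, and the remainder lie in the HOXA cluster, so that all 9 HOXC genes but only 5 of 11 HOXA genes were detected somewhere. Another 10 genes were detected on some array but stayed under a signal of 100 by their representative probe, between 2.82 and 88.9. They were HOXA5, HOXA6, HOXB4, HOXC4, HOXC5, HOXC6, HOXC8, HOXC12, HOXD1 and HOXD13. The remaining 17 genes (43.6%, against 73.9% of all named genes) passed the filter. Most of them passed through the BT474 arrays: 14 genes reached 100 in BT474 and 4 did so in SkBr3, so the number of them that were lower in SkBr3 is a description only.

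**Figure D1:**
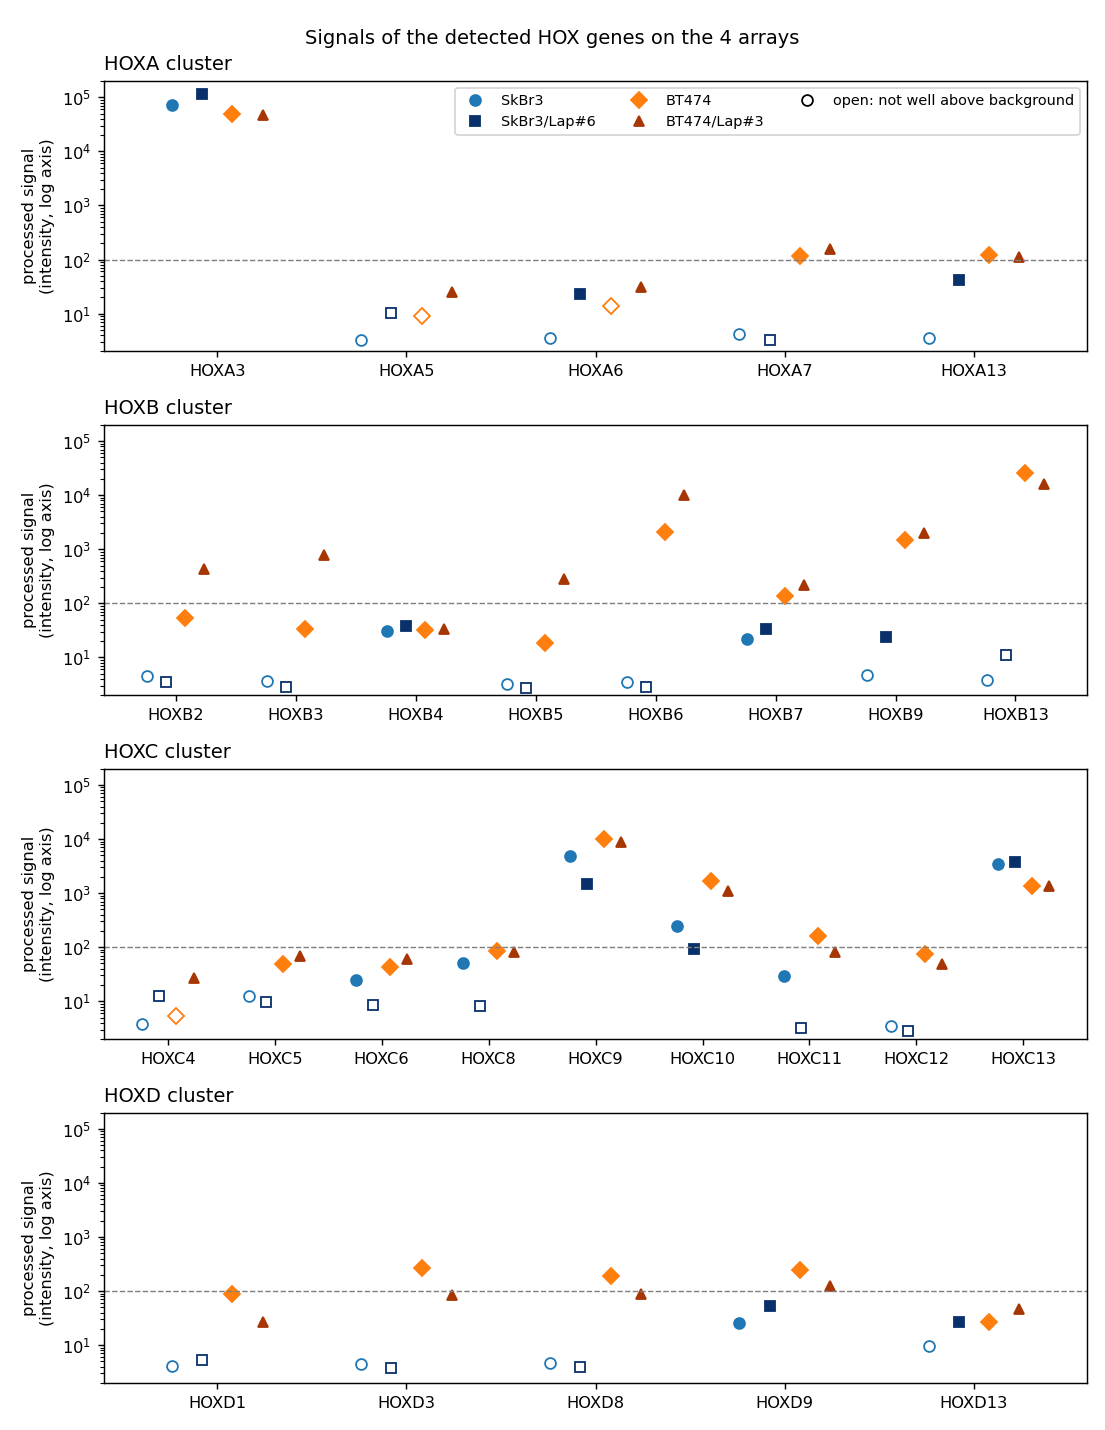
Processed signal of the representative probe of each of the 27 HOX genes detected on at least 1 array (vertical log axis, intensity) on the 4 arrays, by cluster and in the order of the paralog numbers. Filled symbols were well above background, open symbols were not, and the dashed line marks a signal of 100. The BT474 symbols of HOXB6, HOXB9 and HOXB13 lie far above the SkBr3 symbols, which are open.

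In the parental lines, 13 of the 17 HOX genes were at least 2-fold lower in SkBr3 than in BT474 and 1 was at least 2-fold higher. Among all 12136 named genes that passed the filter, 19.0% were lower and 18.6% higher by the same criterion, and the median log2 difference was 0.02 compared with -2.69 for the 17 HOX genes. After normexp background correction and quantile normalization the HOX median was -1.47, and 12 genes were lower, with HOXC9 added and HOXB2 and HOXB3 left out. The largest difference was that of HOXB13, the most posterior HOXB gene, which is known for its role in prostate and for being measured in hormone receptor-positive breast cancer. Its signal was 3.87 in SkBr3 and 11 in SkBr3/Lap#6, against 25630 in BT474 and 16055 in BT474/Lap#3. By this probe it was at background in the SkBr3 pair and bright in the BT474 pair, and SkBr3 was at least 1541-fold lower than BT474. The other HOXB13 probe was well above background on all 4 arrays, at 20.7, 29.8, 6941 and 2983 in the same order, and was 322-fold lower in SkBr3.

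HOXB6 showed the same split, and HOXB9 did so apart from a dim signal in SkBr3/Lap#6 that was well above background. HOXB6 had a signal of 3.51 in SkBr3 and 2.82 in SkBr3/Lap#6, against 2128 in BT474 and 10236 in BT474/Lap#3, and was at least 128-fold lower in SkBr3 than in BT474. HOXB9 had signals of 4.66, 23.9, 1473 and 1994 in the same order, at least 88.5-fold lower in SkBr3. For HOXB7, whose protein has been studied as a growth-promoting factor in breast cancer, the signals were 22.3 and 33.5 in the SkBr3 pair (parental, clone), against 138 and 216 in the BT474 pair. It was 5.95-fold lower in SkBr3, and by its other probe, at 3.82, 2.97, 728 and 745, at least 43.8-fold lower. Both HOXB7 probes placed all SkBr3 signals under all BT474 signals, although the size of the difference depended on the probe. Bounds for the dimmer HOXB2 and HOXB3 were at least 3.18-fold and at least 2.01-fold lower in SkBr3, the second of them just past 2-fold. Neither was past it after normexp or with the mean over all probes of each gene. HOXB5 was too dim in BT474 for a bound of 2-fold.

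HOXC genes were the only cluster with several members bright in SkBr3. HOXC13, which is known for its role in hair and nail formation, had signals of 3486 in SkBr3 and 3792 in SkBr3/Lap#6, against 1334 in BT474 and 1360 in BT474/Lap#3. It was the 1 HOX gene at least 2-fold higher in SkBr3, by 2.72-fold. HOXC9 had a log2 difference of -0.95 between SkBr3 and BT474, just short of 2-fold. With quantile normalization it was -1.03, just past 2-fold, both without and with normexp. HOXC10 was 6.47-fold and HOXC11 5.19-fold lower in SkBr3, so that genes of this cluster differed between the lines in opposite directions.

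In the HOXA cluster, HOXA7 had signals of 4.18 in SkBr3 and 3.27 in SkBr3/Lap#6, against 116 in BT474 and 158 in BT474/Lap#3, and was at least 7.0-fold lower in SkBr3. HOXA13 had signals of 3.59, 41.8, 124 and 113 in the same order and was at least 7.43-fold lower in SkBr3, while its other probe was not detected on any array. Both were thus dim also where they were detected, and with the mean over its probes HOXA13 had a log2 difference of -0.81. HOXA3 gave signals of 71998 in SkBr3 and 112925 in SkBr3/Lap#6, against 48138 in BT474 and 47284 in BT474/Lap#3 by one probe. Its other probe gave 5.16, 3.82, 4.67 and 4.31 and was not detected anywhere. The probes of HOXA3 therefore disagree and its level is uncertain. The bright probe was within 2-fold in all 3 comparisons, and the other gave no value.

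**Figure D2:**
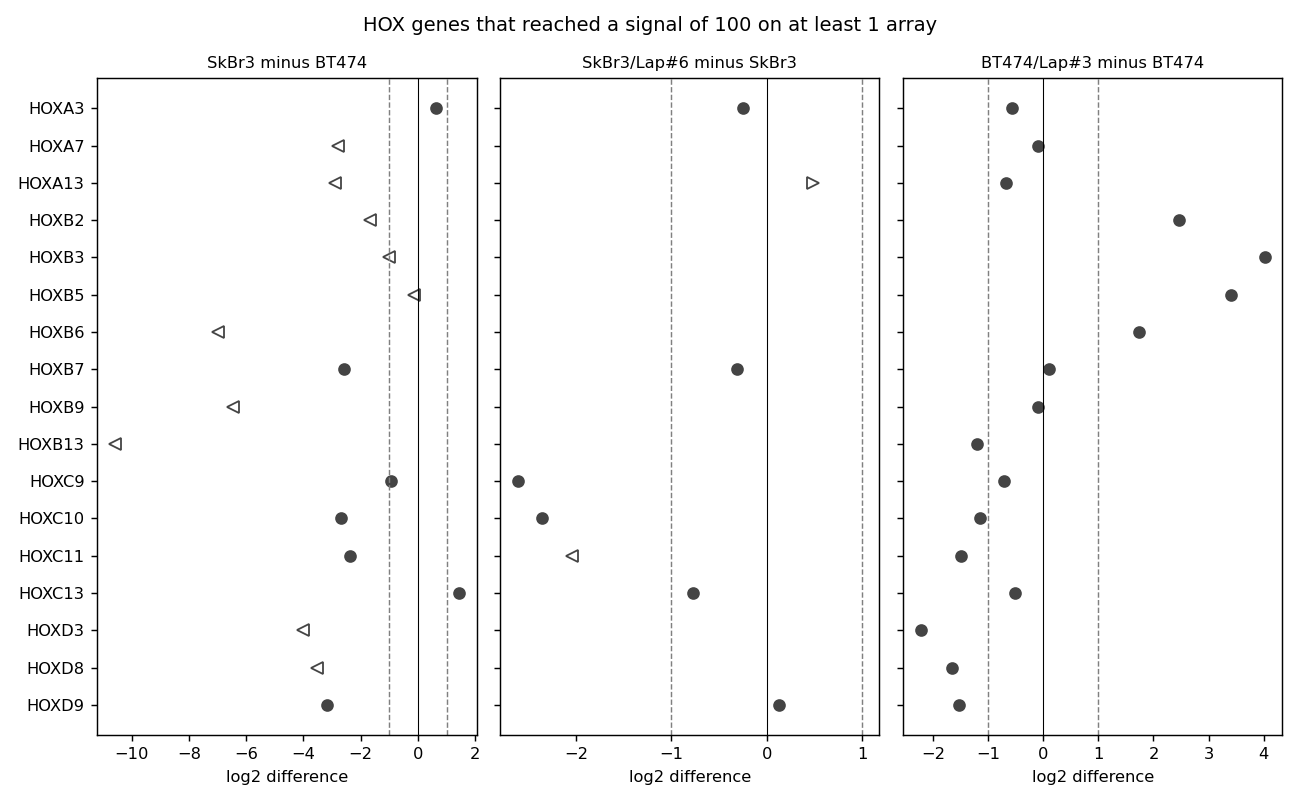
Log2 differences of the 17 HOX genes that reached a signal of 100, for SkBr3 minus BT474, SkBr3/Lap#6 minus SkBr3 and BT474/Lap#3 minus BT474. Circles are measured on both arrays, open triangles are bounds, a missing symbol means that no fold can be given, and dashed lines mark 2-fold. HOXB2, HOXB3, HOXB5 and HOXB6 lie right of the dashed line only in BT474/Lap#3, and HOXC10 and HOXC11 lie left of it in both clones.

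The clone BT474/Lap#3 was compared with BT474 to describe which HOX genes differed between a resistant clone and its parental cells. Both clones were kept with lapatinib. Resistance, exposure to the drug and the choice of a single clone therefore cannot be told apart in either pair. Of the 17 HOX genes, all measured on both arrays, 4 were higher by 2-fold or more and 6 were lower by this much in the clone, and the shares over all named genes were 8.56% higher and 5.16% lower. These counts are a description, since HOXB2, HOXB3 and HOXB5 reached a signal of 100 only in BT474/Lap#3, and HOXC11, HOXD3 and HOXD8 only in BT474. All 4 higher genes were HOXB genes of the anterior and central part of the cluster, and the 6 lower genes were HOXB13, HOXC10, HOXC11, HOXD3, HOXD8 and HOXD9. The median log2 difference was -0.56 over the 17 genes and -0.08 over all named genes. Scaling to the median of the probes rather than to their 75th percentile changed the median difference of all named genes, dim ones taken at their signal, from -0.09 to -0.29, and the higher share of the called genes from 62.4% to 45.6%. The same 4 and 6 HOX genes were called under it.

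The HOXB3 signal was 3.67 in SkBr3 and 2.90 in SkBr3/Lap#6, both at background, 33.4 in BT474 and 791 in BT474/Lap#3, and it was 16.3-fold higher in BT474/Lap#3 than in BT474. HOXB5 had signals of 3.23, 2.66, 18.3 and 280 in the same order and was 10.6-fold higher in BT474/Lap#3. HOXB2 had signals of 4.59, 3.45, 52.9 and 423 and was 5.51-fold higher. These 3 genes were weak in the parental BT474 cells, with HOXB5 close to the dimmest signal that carried the mark, and by these probes at background in both SkBr3 samples. Another HOXB3 probe carried the mark in SkBr3/Lap#6, at 14.8. After normexp the log2 differences of HOXB2, HOXB3 and HOXB5 were 1.52, 2.73 and 1.82, and with the mean over its probes that of HOXB3 was 2.25. All of these were past 2-fold. HOXB6, already bright in BT474, was 3.32-fold higher in BT474/Lap#3.

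The remaining HOXB genes did not follow. HOXB7 had a log2 difference of 0.11 in BT474/Lap#3, which was -0.09 with median scaling. By its other probe, brighter in the BT474 pair, it was -0.50. HOXB9 had one of -0.10, and HOXB13 was 2.32-fold lower, or 3.38-fold lower by its other probe. Along the chromosome the log2 differences by representative probes were thus 2.46 for HOXB2, 4.03 for HOXB3, 3.40 for HOXB5 and 1.73 for HOXB6. They were near 0 for HOXB7 and HOXB9, and -1.21 for HOXB13. HOXB4, whose span lies within that of HOXB3 on the genome, had signals of 32.6 in BT474 and 33.3 in BT474/Lap#3 by its representative probe. Its other probe had 15.6, not well above background, and 97.7, at least 4.22-fold higher in the clone but under the signal filter. The probes of HOXB4 therefore disagree. The other HOXB2 probe reached only 21.3 and the other HOXB3 probes 18.6 and 32.4 in BT474/Lap#3, too dim for a bound of 2-fold.

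Genes around and within the HOXB cluster were examined by position. SKAP1 and TTLL6, the nearest measured neighbors, were not detected on any array. The next ones, CBX1, SNX11, CALCOCO2 and ATP5MC1, had log2 differences of -0.45 to 0.44 in BT474/Lap#3. PRAC1, a prostate and colon gene next to HOXB13, had one of 0.79. None of these genes around HOXB was thus 2-fold apart in the BT474 pair, whereas the 4 HOXB genes were 3.32-fold to 16.3-fold higher. Between the parental lines, CALCOCO2 was 13.8-fold, ATP5MC1 2.91-fold and CBX1 1.99-fold lower in SkBr3. SNX11 and PRAC1 had log2 differences of -0.37 and 0.37 in that comparison.

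In the HOXD cluster, 4 of the 5 genes detected in BT474 were at least 2-fold lower in BT474/Lap#3, 1 of them under the signal filter. Of all named genes that passed the filter, 5.16% were lower by this criterion. The HOXD count is a description only and cannot be set directly against that share. HOXD3 and HOXD8 reached the filter signal in BT474 alone, and HOXD1 reached it on no array. HOXD3 had signals of 4.48 in SkBr3 and 3.83 in SkBr3/Lap#6, against 268 in BT474 and 83.0 in BT474/Lap#3, 4.68-fold lower in the clone (log2 -2.23, or -1.53 after normexp). HOXD8 had signals of 4.63, 3.95, 192 and 87.8 in the same order and was 3.17-fold lower. HOXD9, the only one of them detected in SkBr3, had signals of 26.1, 52.9, 245 and 123 and was 2.88-fold lower in BT474/Lap#3. In SkBr3/Lap#6 its log2 difference was 0.12, which was -0.05 after normexp background correction. HOXD1, under the filter at 88.9 in BT474 and 26.9 in BT474/Lap#3, was 4.79-fold lower by these dim signals, and HOXD13, at 26.7 and 46.0, had a log2 difference of 0.25. All 3 HOXD genes that passed the filter did so through the BT474 arrays alone, so their lower levels in SkBr3 are a description only. Against BT474, HOXD3 was at least 16.1-fold, HOXD8 at least 11.5-fold and HOXD9 9.04-fold lower in SkBr3. The flanking genes NFE2L2, HNRNPA3, MTX2, LNPK, ATP5MC3 and ATF2 had log2 differences of -0.59 to 0.15 in BT474/Lap#3. Between the parental lines, ATF2 was 3.77-fold lower in SkBr3, and the others were within 2-fold.

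The stretches before the start sites of the HOXD genes that were lower in BT474/Lap#3 are shown beside that of HOXD4, which overlaps the span of HOXD3 on its HOXD8 side and was not detected on any array. Each has the 250 bases before a RefSeq start site in GRCh38.p14, on the plus strand, 5′ to 3′. Capitals mark TAAT on either strand, the core that homeodomains bind, and overlapping matches run together. The table used holds no window for HOXD9.
HOXD1, chr2:176188418-176188667: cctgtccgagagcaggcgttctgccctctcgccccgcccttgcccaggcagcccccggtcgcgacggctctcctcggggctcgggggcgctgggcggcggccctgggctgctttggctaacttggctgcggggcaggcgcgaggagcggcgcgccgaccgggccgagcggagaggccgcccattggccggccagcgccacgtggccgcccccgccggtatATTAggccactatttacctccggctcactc
HOXD3, chr2:176157057-176157306: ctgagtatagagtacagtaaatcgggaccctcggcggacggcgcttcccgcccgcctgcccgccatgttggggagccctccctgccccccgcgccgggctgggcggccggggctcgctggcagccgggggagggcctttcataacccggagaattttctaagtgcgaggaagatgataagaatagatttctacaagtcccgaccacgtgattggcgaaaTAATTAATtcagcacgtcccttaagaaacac
HOXD4, chr2:176151300-176151549: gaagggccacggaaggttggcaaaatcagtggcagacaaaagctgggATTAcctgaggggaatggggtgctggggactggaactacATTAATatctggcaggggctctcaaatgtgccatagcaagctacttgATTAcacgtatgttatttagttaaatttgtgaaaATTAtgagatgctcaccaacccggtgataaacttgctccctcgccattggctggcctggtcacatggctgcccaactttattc
HOXD8, chr2:176129455-176129704: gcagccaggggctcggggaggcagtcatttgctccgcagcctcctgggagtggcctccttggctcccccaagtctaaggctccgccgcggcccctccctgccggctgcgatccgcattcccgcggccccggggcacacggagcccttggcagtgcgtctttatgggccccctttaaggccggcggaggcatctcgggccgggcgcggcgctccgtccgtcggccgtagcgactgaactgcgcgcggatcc
The core TAAT occurred 1 time before HOXD1, 3 times before HOXD3 in a single run, 5 times before HOXD4 and not before HOXD8. It was found in 47.4% of all 35116 such windows and in 20 of the 27 windows of 20 HOX genes. The composite TGATNNAT, bound by HOX and PBX proteins together, and the retinoid half-site AGGTCA, searched on both strands, were in none of the 4 windows, against 6.47% and 12.1% of all windows. CG pairs, which are dense in unmethylated CpG islands, numbered 31 before HOXD1, 21 before HOXD3 and 28 before HOXD8 but 4 before HOXD4, and the median of all windows was 11. These are counts of letters and not of bound sites.

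In SkBr3/Lap#6, the HOX genes at least 2-fold lower than in SkBr3 were HOXC9, HOXC10 and HOXC11, and none of the 17 was at least 2-fold higher. Over all named genes 12.9% were lower and 13.4% higher. Only 8 of the 17 genes had a value in this pair, as the others were at background on both arrays or had no usable bound. Of the 12136 named genes that passed the filter, 11770 had a value. The 3 lower genes of 17 therefore cannot be set directly against the share of all genes. The median log2 difference of the 8 HOX genes was -0.54. Over all named genes the median was -0.05.

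HOXC9 had signals of 4929 in SkBr3 and 1503 in SkBr3/Lap#6, against 9899 in BT474 and 8722 in BT474/Lap#3, and was 6.10-fold lower in SkBr3/Lap#6. Its log2 difference in BT474/Lap#3 was -0.72. HOXC10, which is known for its role in hindlimb and motor neuron development, had signals of 252, 91.6, 1691 and 1105 in the same order. It was 5.11-fold lower in SkBr3/Lap#6 (log2 -2.35, or -1.44 after normexp) and 2.22-fold lower in BT474/Lap#3. Its other probe was 5.44-fold lower in SkBr3/Lap#6 and 1.81-fold lower in BT474/Lap#3, so that the BT474 pair is past 2-fold by only 1 of the probes. HOXC11 had signals of 29.4, 3.25, 159 and 81.4 and was at least 4.11-fold lower in SkBr3/Lap#6 and 2.83-fold lower in BT474/Lap#3. After normexp its log2 difference in SkBr3/Lap#6 was -0.64, short of 2-fold. HOXC10 and HOXC11 were the 2 HOX genes past 2-fold in the lower direction in both clones, and no HOX gene was at least 2-fold higher in both. Of all named genes, 1.21% were lower in both clones and 2.46% higher in both.

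Of the HOXC genes under the filter, only HOXC6 and HOXC8 had a value in SkBr3/Lap#6, and both were lower there. HOXC4 and HOXC5 were at background in both SkBr3 samples and had none. HOXC8 had 50.6 in SkBr3 and 8.12, not well above background, in SkBr3/Lap#6, at least 7.07-fold lower, and by its other probe 40.1 and 3.91, at least 5.61-fold lower. HOXC6, whose span overlaps those of HOXC4 and HOXC5, had 24.2 and 8.55, at least 3.39-fold lower. For BT474/Lap#3 against BT474 the HOXC8 log2 difference was -0.57 and that of HOXC6 was -0.08. HOXC12 was not detected in either SkBr3 sample and had 76.5 in BT474 and 47.9 in BT474/Lap#3, 2.32-fold lower. HOXC13, at the posterior end of the cluster, had log2 differences of -0.77 and -0.51. In SkBr3/Lap#6 the genes at least 2-fold lower thus ran from HOXC6 to HOXC11, and the neighbors outside the cluster, HNRNPA1, CBX5, SMUG1, CALCOCO1 and ATP5MC2, had log2 differences of -0.33 to 1.04. CALCOCO1 was 2.51-fold higher in BT474/Lap#3, where HOXC10 and HOXC11 were lower. Between the parental lines, CALCOCO1 was 3.20-fold lower in SkBr3, and the others of these neighbors were within 2-fold.

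**Figure D3:**
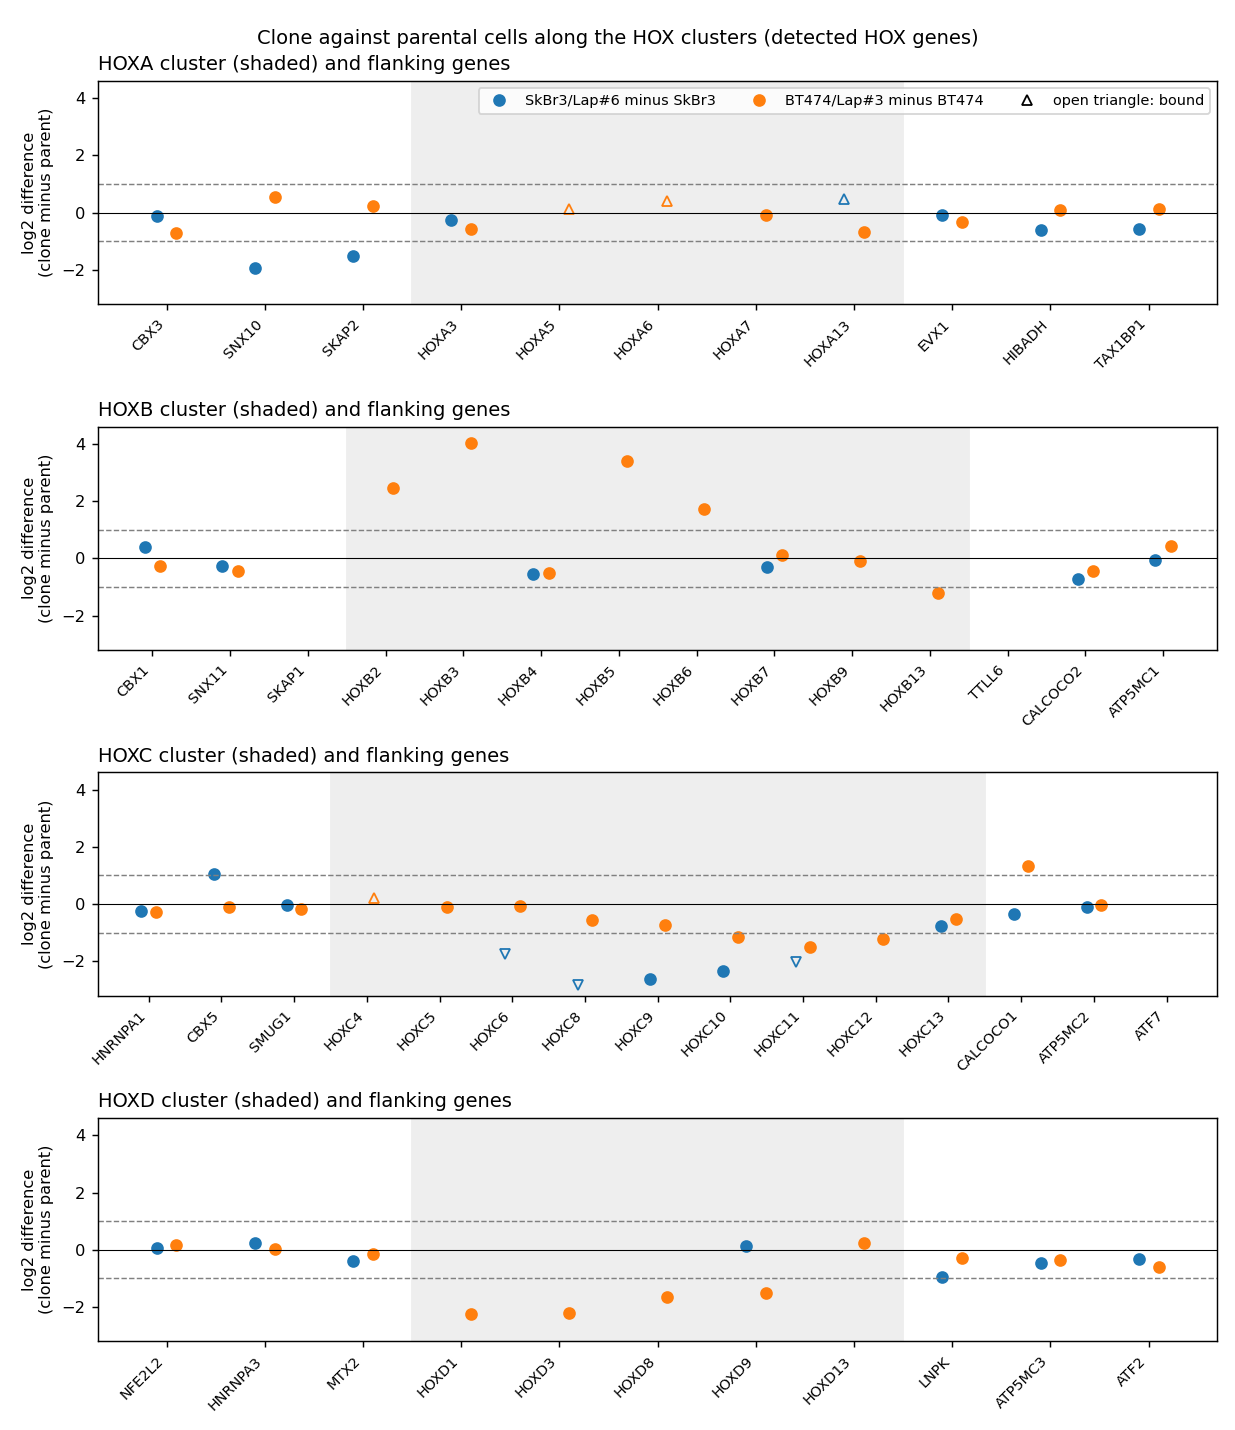
Log2 differences of clone minus parental cells (vertical axis) for the HOX genes of each cluster that were detected on at least 1 array, shaded and ordered from low to high paralog number, and for 3 measured genes on each side. Filled circles are measured, open triangles are bounds, genes without a symbol have no value, and dashed lines mark 2-fold. In BT474/Lap#3 HOXB2 to HOXB6 apart from HOXB4 lie above 2-fold and the HOXD genes from HOXD1 to HOXD9 below it, while in SkBr3/Lap#6 the points from HOXC6 to HOXC11 lie below it.

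Apart from the bright HOXA3 probe, no HOXA or HOXB gene had a signal over 41.8 in SkBr3/Lap#6. HOXA13 was detected in the clone only, at 41.8 against 3.59, a bound of at least 1.40-fold, and HOXB9 at 23.9 against 4.66 had no usable bound. HOXB7 had a log2 difference of -0.31. Beside the HOXA cluster, SNX10 was 3.80-fold and SKAP2 2.84-fold lower in SkBr3/Lap#6. In BT474/Lap#3 their log2 differences were 0.54 and 0.23.

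The cell lines can stand in for replicates of the difference between clone and parental cells in 1 fit. With limma over 25927 probes and cell line as a block, which leaves 1 residual degree of freedom, 0 of 21 HOX probes passed a Benjamini-Hochberg adjusted p of 0.05, as did 0% of all probes. At an unadjusted p under 0.05 there were 4 HOX probes, those of HOXC10 (1 of its probes), HOXC11, HOXD3 and HOXD8, and 900 probes (3.47%) in all. HOXD3 and HOXD8 were at background in both SkBr3 samples and HOXC11 in SkBr3/Lap#6, so their part in this fit rests in part on background signals.

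The cofactors and regulators of HOX genes were described by the same criterion. The shares of all named genes against which these lists are read are 13.4% higher and 12.9% lower in SkBr3/Lap#6 and 8.56% higher and 5.16% lower in BT474/Lap#3. Of the 8 TALE cofactors that passed the signal filter, 1 was higher and none lower in SkBr3/Lap#6, and 3 were higher and 1 lower in BT474/Lap#3. PBX4 had signals of 132 in SkBr3 and 590 in SkBr3/Lap#6, against 86.7 in BT474 and 1114 in BT474/Lap#3. It was the 1 cofactor at least 2-fold higher in both clones, by 2.40-fold and 8.86-fold. MEIS3 was at least 4.64-fold and PBX2 2.46-fold higher in BT474/Lap#3, and MEIS1 was 2.39-fold lower. Between the parental lines, MEIS2 was 14.8-fold higher and PBX3 5.47-fold lower in SkBr3.

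Of 21 Polycomb genes that passed the signal filter, 2 were higher and none lower in SkBr3/Lap#6, and 1 was higher and 1 lower in BT474/Lap#3, shares at or below those of all named genes. PHF19, a PRC2-associated protein that binds trimethylated H3K36, had signals of 249 in SkBr3 and 6968 in SkBr3/Lap#6, against 3746 in BT474 and 8368 in BT474/Lap#3 and was 15.0-fold higher in SkBr3/Lap#6. EZH2, the H3K27 methyltransferase, had signals of 8472, 17981, 16727 and 8954 and was 2.71-fold lower in BT474/Lap#3, with a log2 difference of 0.19 in SkBr3/Lap#6. CBX7, a PRC1 subunit that reads this mark, was 2.31-fold higher in BT474/Lap#3. None of the 15 Trithorax and MLL genes was 2-fold apart in either clone. Their log2 differences were between -0.99 and 0.77.

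The genes of retinoic acid synthesis, binding and breakdown and the CDX genes were listed together. In SkBr3/Lap#6, 2 of the 11 that passed the filter were higher and 5 lower, and in BT474/Lap#3 5 were higher and none lower. In SkBr3/Lap#6 the enzymes that degrade retinoic acid were higher, CYP26B1 at 1775 against 14.3, at least 59.6-fold, and CYP26A1 at 979 against 4.92, at least 32.9-fold. ALDH1A3, which makes retinoic acid, had signals of 6165 in SkBr3 and 1390 in SkBr3/Lap#6, against 97.7 in BT474 and 1293 in BT474/Lap#3. In SkBr3/Lap#6 it was 8.25-fold lower, whereas BT474/Lap#3 had 9.13-fold more. CDX2, a homeobox activator of HOX genes, was at background in both SkBr3 samples and 2.87-fold higher in BT474/Lap#3, at 137 against 32.9.

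Of 21 homeobox genes outside the clusters that passed the filter, 5 were higher and 8 lower in SkBr3/Lap#6, and 2 were higher and 3 lower in BT474/Lap#3. IRX3 had a signal of 3763 in SkBr3 and 38.2 in SkBr3/Lap#6, 183-fold lower, and PITX1 had 1683 and 18.2, 172-fold lower. IRX3, MNX1 and IRX5 were past 2-fold in the lower direction in both clones, IRX3 by 2.75-fold in BT474/Lap#3, MNX1 by 4.49-fold in SkBr3/Lap#6 and 3.94-fold in BT474/Lap#3 and IRX5 by 4.63-fold and 4.84-fold. LHX2 was at least 2-fold higher in both, at least 106-fold in SkBr3/Lap#6 and 3.11-fold in BT474/Lap#3.

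**Figure D4:**
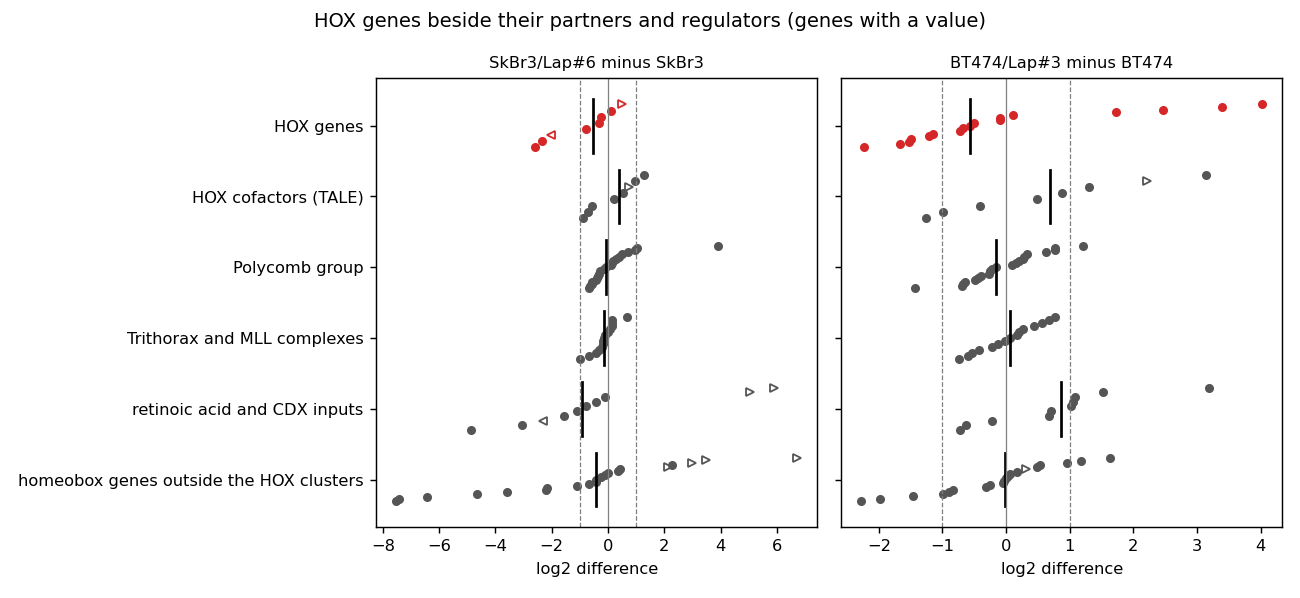
Log2 differences of clone minus parental cells (horizontal axis) for the HOX genes (red) and for lists of partners, regulators and other homeobox genes (grey), for genes that reached a signal of 100 and have a value. Filled points are measured, open triangles are bounds, black bars are medians of each list, and dashed lines mark 2-fold. The HOX genes of BT474/Lap#3 range from -2.23 to 4.03, while the Trithorax and MLL genes stay within 2-fold.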

How the data were processed

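RNA of 4 cultures was hybridized to Agilent 4 × 44 K arrays, 1 per group. The authors scanned the arrays and deposited processed signal intensities from Feature Extraction 10.1.1.1 (1 Cy3 channel, per the file headers), flags for signals well above background, and a table of log2 values scaled by the authors. Differences from that table and from the deposited intensities were nearly identical. Mean log2 intensities of each probe minus the array's 75th percentile were compared. Genes were those with a signal of at least 100 on 1 array or more, and a call was a difference of at least 2-fold, measured or bounded. With 1 array per group there was no test except limma 3.58.1 in R 4.3.3. With cell line as a block, its p-values rest on how far the difference between clone and parental cells disagreed between the cell lines. Slide cannot be separated from that disagreement, because the SkBr3 clone was hybridized on another slide than the remaining samples. Named genes were all HOX members, with partners, regulators and flanking genes from fixed lists. The members and lists were chosen with earlier results of these data known. Calls and limma were checked on simulated data. Alternatives numbered 12, with 2 other designs for limma, slide as a block and no block. Some items are not reported here.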

Additional observations from a re-analysis of the deposited data

Results flagged for a closer look

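HOXD9 was flagged because its log2 difference from parental cells was not alike in the clones, at 0.12 for SkBr3/Lap#6 but -1.53 for BT474/Lap#3. The difference between the clones was not tested, since each group has 1 array. In SkBr3/Lap#6 the value was within 2-fold and rests on dim signals. There it was -0.05 after normexp background correction and -0.18 with an offset of 16, so its direction is not settled.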

How the results depend on the processing

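No paired analysis was possible because each group has 1 array, so that no replicate number can serve as a block, although limma paired each clone with its parental cells through the cell line. Under 8 alternatives, 39 gene values were recomputed 307 times, and no called value changed sign. Over 1.5-fold moved 17 values after normexp, 11 with an offset of 16 and 3 with the mean over all probes of each gene. At a 3-fold threshold, 0 HOX genes were higher in SkBr3 than in BT474, and 2 (HOXD3 and HOXD8) were lower in BT474/Lap#3. With only probes well above background on all arrays, 3 genes were lower in SkBr3 than in BT474 (HOXB7, HOXC10 and HOXD9), and in BT474/Lap#3 0 were higher and 2 lower (HOXC10 and HOXD9), since this leaves out genes at background in SkBr3. Without the signal filter, 5 genes were lower in SkBr3/Lap#6, with HOXC6 and HOXC8 added. Taking dim signals at their value in place of bounds gave 2 higher (HOXA13 and HOXB9) and 10 lower in SkBr3/Lap#6. HOXC11 was not called in SkBr3/Lap#6 after normexp (log2 -0.64), and in SkBr3 against BT474 HOXB3 was not called with median scaling (-0.96), HOXB2 not after normexp (-0.78), and HOXA13 (-0.81), HOXB2 and HOXB3 not with the mean over probes, which left 10 lower genes. Detection by any probe, chosen after seeing the data, left 9 of 11 genes seen on the BT474 arrays alone. By limma 0 HOX probes passed an adjusted p of 0.05 under the alternatives run, and between 0 and 7 had an unadjusted p under 0.05. Signals near background limit most HOX values in SkBr3 cells.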
